A study of Mus musculus with 8 samples.

Results

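The genes described here are 32 mouse genes that other studies, in other cell types, have reported as targets of the microRNA miR-125b. They were chosen by gene name, and every array probe that carries one of these names was taken (45 probes of 55681). Of the 32 genes, 29 passed the intensity filter and were tested among 18791 genes in all. The growth factor gene Igf2, the receptor gene Erbb2 and the let-7 inhibitor gene Lin28b (both of its probes) were not well above background on any array and were not tested.

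RNA was taken from 2 mouse pre-B leukaemia lines. One is 18-81, made by transforming pre-B cells with Abelson murine leukaemia virus, and the other is 70Z/3, a line of leukaemic pre-B lymphoblasts. The 4 groups were 18-81 with pre-miR-125b, 18-81 with miR-Neg, 70Z/3 with pre-miR-125b and 70Z/3 with miR-Neg. Pre-miR-125b is a synthetic duplex that supplies miR-125b, and miR-Neg is its control duplex. Every group had the same lipid transfection, with 10 nM of duplex, fresh medium at 8 h and RNA at 48 h, so no group was left untransfected. The stated purpose was to find targets of miR-125b. Each group holds 2 arrays, 1 from each of 2 independent experiments, and the number of arrays limits the precision of every value.

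MicroRNAs guide Argonaute proteins to messenger RNAs, chiefly through pairing of the seed near their 5′ end with sites in the 3′ untranslated region. Paired messages are translated less and are often degraded, so a target can lose protein with little loss of its RNA, and an array reads only the RNA. miR-125b is the vertebrate relative of lin-4 of Caenorhabditis elegans. In blood cells it is best known for driving leukaemia when overproduced, in B-lymphoid as well as myeloid cells. The listed genes have varied roles: receptors (Erbb2, Erbb3, S1pr1, Smo, Vdr), kinases and phosphatases, transcription factors and their cofactors, and regulators of RNA, the cell cycle and lipids.

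The mature strand is shown first because its seed, bases 2 to 8, defines which sites it can bind. In RefSeq (GRCm38.p6) 5 mature mouse microRNAs hold this seed, also mmu-miR-6367 and mmu-miR-6394, and the capitals mark it in 3 of them. The sequence of the synthetic duplex itself was not used here.
mmu-miR-125b-5p: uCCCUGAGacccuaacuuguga
mmu-miR-125a-5p: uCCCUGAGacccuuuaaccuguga
mmu-miR-351-5p: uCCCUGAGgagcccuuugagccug

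The match to this seed in a message reads CTCAGGG. It was searched on the sense strand of all array probes, of which 0.44% (245 of 55681) hold it. Among the 45 probes of the listed genes 1 holds it, the probe of Bap1, which encodes a tumour-suppressing deubiquitinase. The probe lies at chr14:32072862-32072921 of mm9 on the plus strand, and its stretch at chr14:32072877-32072898 is printed with the match in capitals, because it is the only listed probe with one. The files do not say whether this stretch is coding or untranslated.
Bap1 probe, 22 bases: cctcttgcaaggtaCTCAGGGt

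The arrays are 60-base probes read in 1 colour, and values below are processed intensities scaled to a common 75th percentile. Per array, 38 to 45.1% of the probes exceeded background clearly. The 75th percentile before scaling was 561 to 713 on the 18-81 arrays, 697 and 500 on the 70Z/3 miR-125b arrays and 509 and 335 on the 70Z/3 miR-Neg arrays, so that in 70Z/3 it was higher with miR-125b in each experiment. Of 12 B-cell precursor markers 10 were above background on both arrays of every group, while Rag1 and Rag2 were above it on none. The summed T-cell markers were 20524 to 22422 with miR-125b and 25386 to 76759 with miR-Neg in 70Z/3. Only 5 of these 10 markers were above background on both arrays of each 70Z/3 group. The stromal sum was 10244 to 11379 with miR-125b and 30613 to 37990 with miR-Neg in 18-81. Only 2 of the 7 stromal markers were above background on both arrays of each 18-81 group. In 70Z/3 the B-cell precursor sum was 406307 to 467462 with miR-125b and 494853 to 881329 with miR-Neg. The sum of the 8 myeloid markers there was 18068 to 19565 with miR-125b and 22970 to 27126 with miR-Neg, although its members Lyz2 and Mpo exceeded background on miR-125b arrays of 70Z/3 and in no other group. The part of these differences in the results below was not tested. In bulk RNA, fewer cells of a type and less RNA per cell cannot be told apart.

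**Figure D1:**
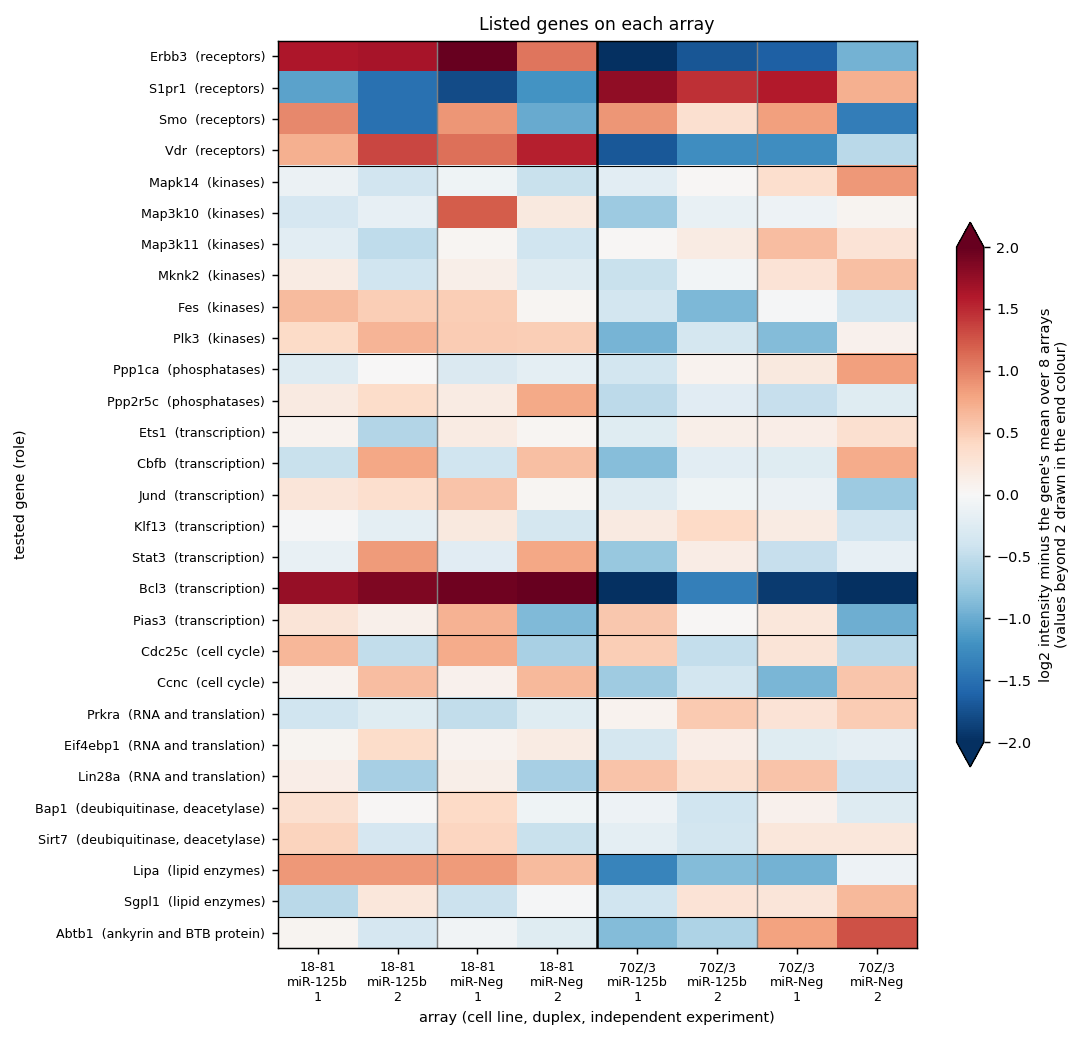
Heat map of the 29 tested listed genes (rows, ordered by role) on the 8 arrays (columns, named by cell line, duplex and experiment number). Colour gives the log2 intensity minus the gene's own mean over the 8 arrays. Erbb3, Vdr and Bcl3 are high on every 18-81 array, S1pr1 is high on every 70Z/3 array, and Abtb1 is high on the 70Z/3 miR-Neg arrays.

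In 70Z/3 cells, no listed gene passed the test between miR-125b and miR-Neg after adjustment (0 of 29, with limma and Benjamini-Hochberg adjustment at 0.05; 0% of all genes called). The gene furthest from 0 was Abtb1, which encodes a protein with ankyrin repeats and BTB domains. Its unadjusted p was under 0.05, alone among the listed genes (1 of 29, lower with miR-125b), while 3.10% of all genes were lower at that level and 5.91% differed in either direction. The median difference of the 29 genes was −0.30 on the log2 scale, against −0.13 for all genes. That offset of −0.17 was −0.0064 without replicate 1 of 70Z/3 miR-Neg and 0.034 with no intensity filter, so its direction is not settled.

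The Abtb1 probe lies at chr6:88785910-88785969 of mm9, on the minus strand. Abtb1 had scaled intensities of 2629 and 3144 on the 70Z/3 miR-125b arrays and 8383 and 11680 on the 70Z/3 miR-Neg arrays. Both miR-125b arrays were far below both miR-Neg arrays, and the groups did not overlap. The fitted log2 difference was −1.78 ± 0.30 (SE, n = 2 each; limma, adjusted p = 0.545), with −1.67 in experiment 1 and −1.89 in experiment 2. In linear terms the level with miR-125b was 3.44-fold lower. Leaving out each of the 8 arrays in turn gave differences between −2.02 and −1.54. In 18-81 cells Abtb1 had 5003 and 3827 with miR-125b and 4594 and 4092 with miR-Neg. Those 4 values overlapped, and the difference was 0.01 ± 0.30 (95% interval −0.69 to 0.71).

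The difference between the effects in the lines, 18-81 minus 70Z/3, was 1.80 ± 0.43 for Abtb1 (SE; 95% interval 0.81 to 2.79; limma, adjusted p = 0.933). It was 1.80 in each experiment. Of the 29 listed genes, Abtb1 was the only one with an unadjusted p under 0.05 in this comparison, and 1.98% of all genes were higher and 3.28% differed at that level. With the experiment number as a block 4 were higher at that level (Abtb1, Cbfb, Fes and Ppp1ca; 9.44% of all genes) and none passed after adjustment. The level of Abtb1 in the 18-81 groups lay between those of the 2 70Z/3 groups, as the plot of Abtb1 shows. The average of the effects in both lines was −0.89 ± 0.21 (limma, adjusted p = 1.00).

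**Figure D2:**
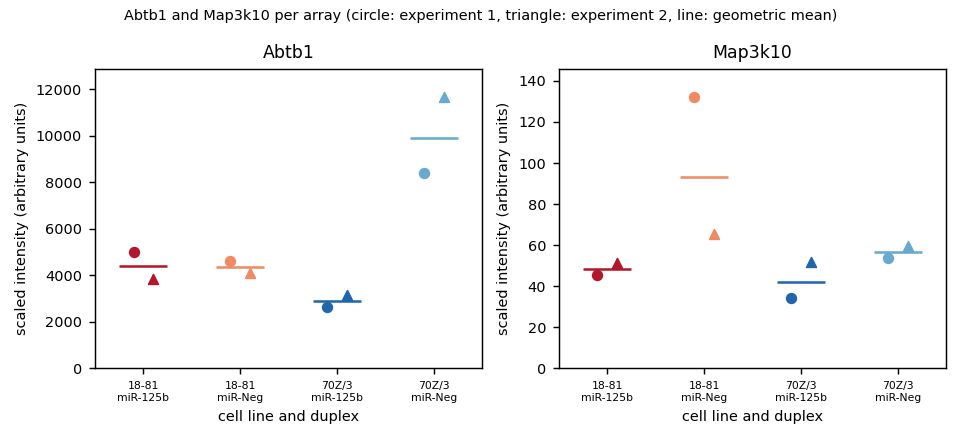
Scaled intensity (arbitrary units, linear axis from 0) of Abtb1 and Map3k10 on each array, by cell line and duplex. Circles are experiment 1, triangles experiment 2, and lines the geometric mean of the 2 arrays. Abtb1 reached 8383 and 11680 on the 70Z/3 miR-Neg arrays and at most 5003 on the other 6, while for Map3k10 the value of 132 in 1 18-81 miR-Neg array stands above the other 7.

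The next listed genes by p in 70Z/3 did not reach 0.05. Mapk14, the stress kinase p38 alpha, had 8708 and 10272 with miR-125b and 12795 and 18387 with miR-Neg. Its arrays did not overlap, and the difference was −0.70 ± 0.31 (limma, adjusted p = 0.77). Mknk2, a kinase that phosphorylates the cap-binding factor eIF4E, was at −0.68 ± 0.33, and Ppp1ca, a catalytic subunit of protein phosphatase 1, at −0.66 ± 0.32. In both genes, too, the 2 miR-125b arrays were below the 2 miR-Neg arrays.

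Counted by arrays alone, 10 of 29 genes (34.5%) had both miR-125b arrays below both miR-Neg arrays in 70Z/3, where 22.6% of all genes did. These were Abtb1, Mapk14, Map3k10, Map3k11, Mknk2, Ppp1ca, Ets1, Sirt7, Erbb3 and Vdr, and the last pair was not well above background on any 70Z/3 array. Both arrays were higher for 1 gene, Klf13, a zinc finger transcription factor, against 15.0% of all genes. A lower value in both experiments was seen for 16 of 29 genes, against 43.9% of all genes, and a higher one for 6, against 24.1%. With the median of all genes taken off, the median of the list was −0.22 in experiment 1 and −0.01 in experiment 2. With the experiment number as a block, 6 of 29 genes (20.7%) were lower at an unadjusted p under 0.05 in place of 1, while 14.5% of all genes were, and 0 passed after adjustment (for Abtb1, limma, adjusted p = 0.196). The 6 were Abtb1, Mapk14, Ppp1ca, Cbfb, Sgpl1 and Vdr.

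Other listed genes in 70Z/3 varied in both directions. Among the receptors detected in 70Z/3, S1pr1, a receptor for sphingosine 1-phosphate, was at 0.47 ± 0.39 and Smo, the signal transducer of the hedgehog pathway, at 0.89 ± 1.00. Smo had 626 and 425 with miR-125b and 599 and 130 with miR-Neg, and its low value lies in experiment 2, as it does in 18-81. Bcl3, an atypical I-kappaB protein that acts with NF-kappaB in the nucleus, was at 0.49 ± 0.33, with −0.10 in experiment 1 and 1.09 in experiment 2. Pias3, a SUMO ligase that restrains Stat3, was at 0.67 ± 0.58, and Sirt7, a nuclear deacetylase, at −0.50 ± 0.39. For Pias3 the difference was 0.32 in experiment 1 and 1.01 in experiment 2, where its miR-Neg array was not well above background. Map3k11, a mixed-lineage kinase, was at −0.34 ± 0.30 and Eif4ebp1, a repressor of cap-dependent translation, at 0.10 ± 0.29. Stat3, the transcription factor of cytokine receptors, was at 0.00 ± 0.50, an interval from −1.14 to 1.15. Bap1, whose probe carries the seed match printed above, was at −0.16 ± 0.31.

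**Figure D3:**
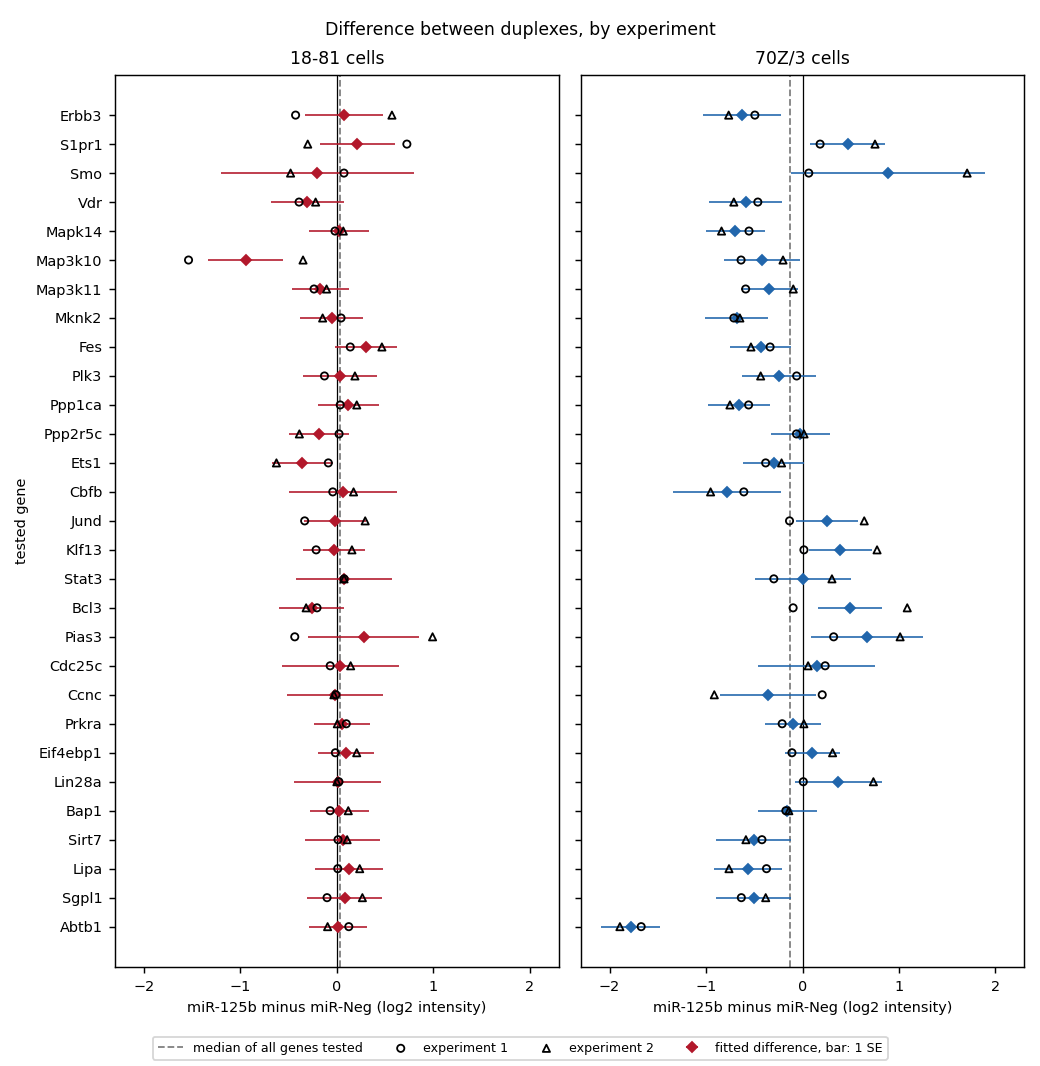
Log2 difference of miR-125b minus miR-Neg for the 29 tested listed genes in 18-81 (left) and 70Z/3 (right). Diamonds with bars are the fitted difference ± 1 SE, circles and triangles the 2 experiments, and the dashed line the median of all genes tested (0.03 in 18-81 and −0.13 in 70Z/3). In 18-81 Map3k10 stands apart through experiment 1, and in 70Z/3 Abtb1 stands apart in both experiments.

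In 18-81 cells no listed gene passed after adjustment either (0 of 29; 0% of all genes; limma). Map3k10, a mixed-lineage kinase upstream of the JNK pathway, was the only one with an unadjusted p under 0.05, and 0.607% of all genes were lower at that level. The median difference of the 29 genes was 0.02, against 0.03 for all genes, and the offset ran from −0.28 without replicate 2 of 18-81 miR-Neg to 0.14 without replicate 1 of that group. Lower in both experiments were 6 genes, against 18.2% of all genes, and higher in both were 6, against 34.0%.

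Map3k10 had 45.6 and 51.3 with miR-125b and 132 and 65.5 with miR-Neg in 18-81. The groups did not overlap, but the 2 miR-Neg arrays themselves differed by −1.02 on the log2 scale, experiment 2 minus experiment 1. The difference was −0.94 ± 0.39 (SE, n = 2 each; limma, adjusted p = 1.00), with −1.54 in experiment 1 and −0.35 in experiment 2. It was −0.44 without replicate 1 of 18-81 miR-Neg, −1.45 without replicate 2 of that group, and −0.47 with normexp background correction and quantile normalization. A second Map3k10 probe was above background only on that same miR-Neg replicate 1. In 70Z/3 Map3k10 had 34.5 and 51.8 with miR-125b and 53.6 and 59.6 with miR-Neg, a difference of −0.42 ± 0.39. On average over both lines it was −0.68 ± 0.28 (limma, adjusted p = 1.00). At an unadjusted p under 0.05, 2 of 29 listed genes were lower in that average, Abtb1 and Map3k10, and 1.22% of all genes. The block made it 4, with Cbfb and Vdr, against 4.08% of all genes, and Vdr was not well above background on any 70Z/3 array. Lower in both experiments, in that average, were 17 genes, against 37.9% of all, and higher were 4, against 25.1%. Without replicate 1 of 18-81 miR-Neg the average for Map3k10 was −0.43.

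The arrays of the duplexes did not overlap for 4 of the 29 genes in 18-81. Both miR-125b arrays were lower for Map3k10 and Bcl3, against 4.76% of all genes, and higher for Fes and Lipa, against 8.47%. Fes, a cytoplasmic tyrosine kinase, was at 0.30 ± 0.32, and Lipa, the lysosomal acid lipase, at 0.12 ± 0.35. Bcl3 was at −0.26 ± 0.33. Apart from Map3k10, the differences of the listed genes in 18-81 ran from −0.36 for Ets1 to 0.30 for Fes. Smo had the widest error there (1.00), so a change of that size in it was not detectable with these arrays.

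The 2 lines differed far more than the duplexes did. Between 18-81 and 70Z/3, averaged over both duplexes, 9 of 29 listed genes passed the adjusted threshold (7 higher and 2 lower in 18-81; limma), and 31.9% of all genes did, 15.8% higher and 16.1% lower. Of the 9, Erbb3, Vdr and S1pr1 entered the test through the line where they are high, and their part of the count is no independent result. Among the 25 listed genes above background on all 8 arrays, 6 passed, and 3536 of the 14654 genes kept by that filter did. With the experiment number as a block there were 14 (48.1% of all genes), 10 higher (24.7%) and 4 lower (23.4%), the further ones being Ccnc, Jund and Stat3 among the higher and Map3k11 and Lin28a among the lower. Counted by arrays, 8 genes had all 18-81 values above all 70Z/3 values (18.8% of all genes) and 2 had all below (18.0%). The median of the 29 was 0.13, against 0.02 for all genes. The offset of 0.11 turned to −0.24 without replicate 1 of 18-81 miR-Neg and was 0.36 without replicate 1 of 70Z/3 miR-Neg.

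Among the receptors, Erbb3, a partner of ErbB2 in neuregulin signalling, was well above background only in 18-81. It had 63.9 and 65.0 in 18-81 with miR-125b and 86.1 and 43.7 with miR-Neg, against 4.76 and 6.34 in 70Z/3 with miR-125b and 6.71 and 10.8 with miR-Neg. All 4 values of 18-81 were above all 4 of 70Z/3. The 70Z/3 values were not well above background, so only a bound can be given, at least 2.52-fold higher in 18-81 on this scaling. The p from limma (adjusted p = 5.56e-05) belongs to the fitted difference, which uses those dim values, and the bound itself was not tested. For such a bound the brighter line's mean is divided by a floor for the dimmer line, which is the dimmest clearly detected signal of each array or the probe's own signal, whichever is higher.

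Vdr, the nuclear receptor for active vitamin D, had the same pattern. It had 29.4 and 45.5 in 18-81 with miR-125b and 38.7 and 53.1 with miR-Neg, against 5.54 and 7.58 in 70Z/3 with miR-125b and 7.64 and 12.4 with miR-Neg. Again all 18-81 arrays were higher, by at least 1.63-fold on this scaling. The p from limma (adjusted p = 0.00025) is again that of the fitted difference and not of the bound. S1pr1, which guides lymphocyte exit from tissues, went the other way. It had 38.5 and 28.7 in 18-81 with miR-125b and 23.3 and 35.4 with miR-Neg, against 275 and 223 in 70Z/3 with miR-125b and 243 and 132 with miR-Neg. All 18-81 arrays were lower, but S1pr1 was well above background on only 1 of those 4. The fitted difference of −2.77 ± 0.27 (SE, n = 4 arrays from 2 experiments per line, limma, adjusted p = 0.000106) is therefore uncertain in size. The size of these 3 differences depends on the processing of dim signals: after normexp correction and quantile normalization they were 0.92 for Erbb3, 0.64 for Vdr and −1.40 for S1pr1, and each still passed. For Erbb3 and Vdr these differences are smaller than the bounds above, so the bounds do not hold under that processing, which adds an offset of 50 to every signal.

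Among regulators of transcription, Bcl3 differed between the lines. It had 1039 and 1141 in 18-81 with miR-125b and 1199 and 1424 with miR-Neg, against 77.5 and 121 in 70Z/3 with miR-125b and 82.9 and 57.1 with miR-Neg. It was above background on all 8 arrays, and every 18-81 array exceeded every 70Z/3 array. The log2 difference was 3.87 ± 0.24 (SE, n = 4 each; limma, adjusted p = 5.56e-06), a 14.6-fold higher level in 18-81. The other regulators did not pass. Jund, an AP-1 subunit, was at 0.60 ± 0.23 (adjusted p = 0.0855), Stat3 at 0.62 ± 0.35, and the Runx partner Cbfb at 0.27 ± 0.39.

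Among kinases and phosphatases, 3 genes passed, all higher in 18-81. Plk3, a polo-like kinase of the stress response, had 2016 and 2478 in 18-81 with miR-125b and 2204 and 2178 with miR-Neg, against 810 and 1217 in 70Z/3 with miR-125b and 845 and 1645 with miR-Neg. Fes had 2489 and 2276 in 18-81 with miR-125b and 2262 and 1648 with miR-Neg, against 1252 and 864 in 70Z/3 with miR-125b and 1581 and 1252 with miR-Neg. Neither gene overlapped between lines, and the differences were 1.03 ± 0.27 for Plk3 (limma, adjusted p = 0.0214) and 0.83 ± 0.22 for Fes (limma, adjusted p = 0.0246). A second Fes probe did overlap between lines and did not pass, at 0.62 ± 0.46 (limma, adjusted p = 0.359 over all probes). Ppp2r5c, a regulatory subunit of protein phosphatase 2A, was at 0.74 ± 0.22 (limma, adjusted p = 0.0339). It had 5796 and 6596 in 18-81 with miR-125b and 5709 and 8641 with miR-Neg, against 3532 and 4344 in 70Z/3 with miR-125b and 3690 and 4298 with miR-Neg. No array of 1 line overlapped the other, but the other 2 Ppp2r5c probes differed by 0.11 and 0.01, and the mean of all 3 did not pass (0.28, adjusted p = 0.322).

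In the lipid and RNA groups 1 gene each passed. Lipa had 1844 and 1852 in 18-81 with miR-125b and 1833 and 1573 with miR-Neg, against 405 and 557 in 70Z/3 with miR-125b and 525 and 944 with miR-Neg. The lines did not overlap, and the difference was 1.62 ± 0.25 (SE, n = 4 arrays from 2 experiments per line, limma, adjusted p = 0.00144). Prkra, an activator of the kinase PKR that also binds Dicer, had 480 and 533 in 18-81 with miR-125b and 448 and 532 with miR-Neg, against 661 and 909 in 70Z/3 with miR-125b and 766 and 900 with miR-Neg. All 18-81 values were below all 70Z/3 values, by −0.69 ± 0.20 (limma, adjusted p = 0.0341). Sgpl1, which degrades sphingosine 1-phosphate, and Lin28a, an inhibitor of let-7 maturation, did not pass, at −0.38 ± 0.27 and −0.53 ± 0.32.

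Erbb3, Vdr and S1pr1 passed whichever of the 8 arrays was left out. They entered the test through the line where they are high, so this is no independent check. Bcl3 and Lipa, above background on all 8 arrays, also passed each time. The 4 smaller differences did not: Plk3 was lost without 4 arrays (adjusted p up to 0.0881), Fes without 5 (up to 0.107), Ppp2r5c without 6 (up to 0.131) and Prkra without 7 (up to 0.145), always with the same direction. Among the miR-Neg arrays alone these 4 did not pass, with adjusted p of 0.151, 0.377, 0.105 and 0.106.

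**Figure D4:**
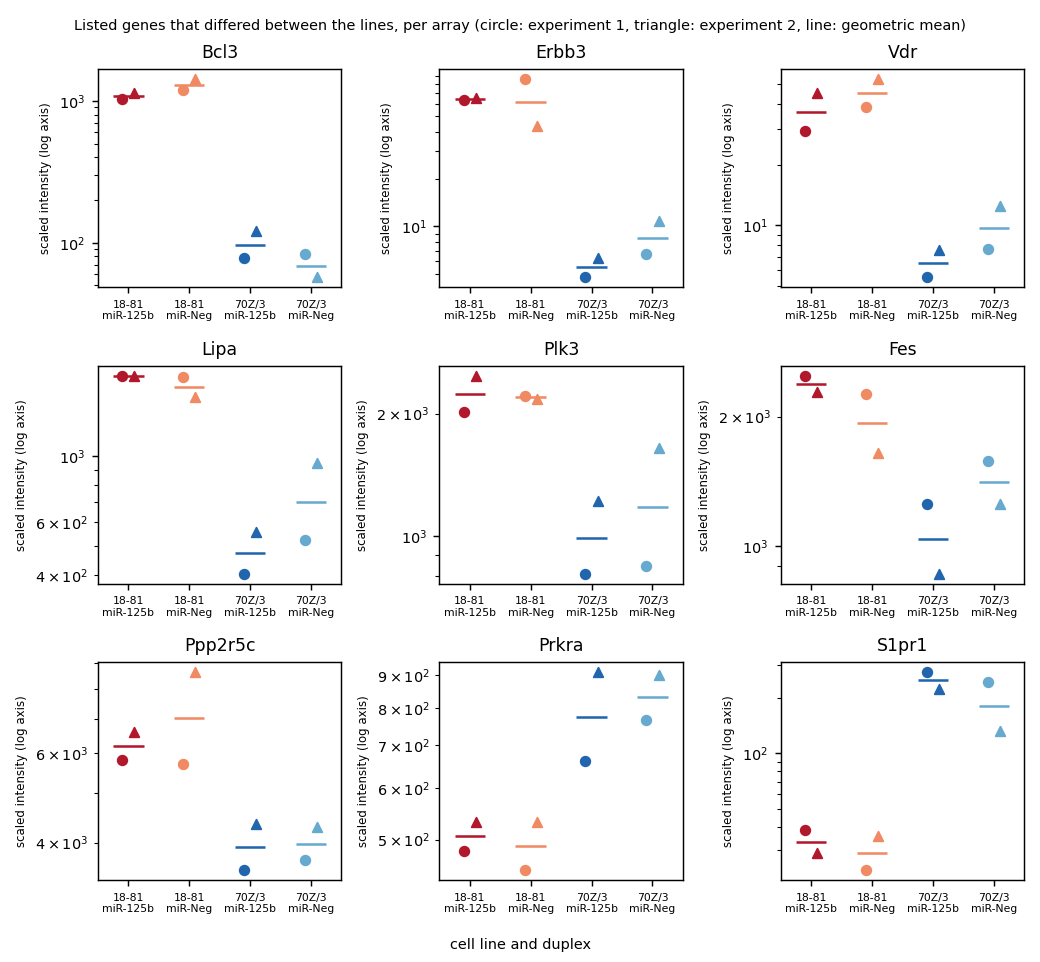
Scaled intensity (log axis) per array of the 9 listed genes that differed between the lines, by cell line and duplex. Circles are experiment 1, triangles experiment 2, and lines the geometric mean of the 2 arrays. In 7 genes all 18-81 arrays lie above all 70Z/3 arrays, and in Prkra and S1pr1 all lie below; the 70Z/3 values of Erbb3 and Vdr, and 3 of the 4 18-81 values of S1pr1, are not well above background.

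Where a gene has several probes, they did not always give the same answer. More than 1 probe passed the filter for 8 listed genes. In 70Z/3 a second Ppp2r5c probe was at −1.03 ± 0.35 with miR-125b (limma, adjusted p = 0.741 over all probes), while the brightest probe of that gene was at −0.02. The second probe of Ccnc, the cyclin of the Mediator kinase module, was at −1.05 and the brighter at −0.36. A second Stat3 probe was at 0.68 and the brighter at 0.00. That second probe was not well above background on replicate 2 of 70Z/3 miR-Neg (51.7, against 130 to 143 on the other 70Z/3 arrays). For Fes the second probe was at 0.27 and the brighter at −0.44. For Klf13 the probe at chr7:71032482-71032541 of mm9 lies on the plus strand, opposite to the probe that stands for the gene at chr7:71082854-71082913, and the line differences were 0.50 and −0.19.

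Several listed genes differed by experiment more than by duplex. Experiment 2 differed from experiment 1 in the same direction in all 4 groups for 16 of 29 genes, against 50.4% of all genes, 9 of them higher (37.9%) and 7 lower (12.5%). Cdc25c, a phosphatase that activates the mitotic kinase Cdk1, had 890 and 807 in experiment 2 of 18-81 with miR-125b and with miR-Neg and 900 and 865 in the same groups of 70Z/3. In experiment 1 those groups had 1995, 2094, 1778 and 1511. Every value of experiment 1 was thus well above every value of experiment 2. Cbfb went the other way in each group, by 1.22 and 1.01 in 18-81 and 0.64 and 0.99 in 70Z/3 for miR-125b and miR-Neg. These genes were picked after their values were seen, no test was run, and experiment and slide row cannot be told apart.

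Genes that work with the listed ones were read beside them in 16 lists of 118 genes, of which 94 were tested. None of the 94 passed after adjustment in any comparison of the duplexes (limma). In 70Z/3, 4 were higher and 2 lower with miR-125b at an unadjusted p under 0.05, against 2.81 and 3.10% of all genes. The smallest p were those of Stat2, which carries interferon signals (0.94 ± 0.32; limma, adjusted p = 0.763), and the neutral ceramidase Asah2 (1.04 ± 0.38; limma, adjusted p = 0.77). In 18-81 none reached 0.05, and Asah2 was at −0.57 ± 0.38 and the Mediator subunit Med12 at −0.40 ± 0.29. Over both lines Med13 was at −0.50 ± 0.21 and Stat2 at 0.52 ± 0.23 (limma, adjusted p = 1.00 for each). The difference of effects was −1.60 ± 0.53 for Asah2 and 1.16 ± 0.50 for Tarbp2, a Dicer partner (limma, adjusted p = 0.933 for each).

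Between the lines 31 of the 94 neighbours passed, 11 higher and 20 lower in 18-81, with the same 31.9% of all genes as background. Igf2bp3, an oncofetal RNA-binding protein, was at least 80.5-fold lower in 18-81, where it was not well above background. The p from limma (adjusted p = 2.70e-07) belongs to the fitted difference, which uses that dim signal, and the bound was not tested. Igf2bp3 entered the test through the other line, so its part of the count is no independent result. Neighbours that entered in this way are not told apart in the counts given here. Stat4, a transcription factor of cytokine signalling, was at −7.02 ± 0.27 (limma, adjusted p = 4.12e-07). Both tested Runx partners of Cbfb were lower in 18-81, of 6 sphingosine 1-phosphate genes 1 was higher and 2 were lower, and of 5 genes of the IGF and Lin28 list 1 was higher and 3 were lower. Of 10 PP1 and PP2A phosphatase genes 1 was lower, and of 7 genes for translation control by eIF4E none passed (1 higher at an unadjusted p under 0.05).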

How the data were processed

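Cy3-labelled RNA of 8 samples was read on 8 arrays of 1 slide. Per the file headers, the deposited intensity of each spot came from Agilent Feature Extraction (version 10.7.3.1), already background-subtracted, with probe positions on mm9. Each array holds 62976 spots, 59305 of them not controls. Controls and flagged outliers (140 to 203 per array) were dropped, repeated spots were averaged per probe, and none was saturated. On the log2 scale each array had its own 75th percentile subtracted; printed intensities are set to the geometric mean of these percentiles. Testing required, in at least 1 group, detection on both arrays, and the brightest probe stood for its gene.

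limma 3.58.1 in R 4.3.3 fitted 4 group means to all 8 arrays, with moderation (prior degrees of freedom 3.81) and Benjamini-Hochberg adjustment over all 18791 genes. The procedure was also run on simulated data with independent noise on each array and planted duplex differences larger than that of any listed gene. Pairing by experiment and smaller differences were not simulated. P-values rest on 2 arrays a group, from experiments called independent in the design text. Deviations from the group means correlated between same-numbered arrays (r 0.37 to 0.65 in 6 pairings of groups), which with the design text was read as pairing; a block by number is an alternative. The others were quantile normalization, normexp background correction with an offset of 50, the deposited series table (the authors' normalized intensity, linear, medians 14.6 to 14.7, method not given in the sources used here), 2 filters, the mean of probes, an intensity trend, single lines, miR-Neg arrays alone, each array left out and, chosen after seeing the data, a 75th percentile over probes above background on all arrays. Members and lists were chosen with earlier results of these data known. Array values are printed for members with an unadjusted p under 0.05 for the duplexes, past the adjusted threshold between lines, or above background in 1 line only; of the neighbours, the 2 smallest p per comparison. Other members' values were added as examples. Mature sequences are from RefSeq (GRCm38.p6).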

Additional observations from a re-analysis of the deposited data

How the results depend on the processing

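No listed gene passed the adjusted threshold for the duplexes under any alternative run. Of the single-gene results under all alternatives, 218 kept their side of the threshold and 33 lost it, with no reversal, and the 33 are those of Plk3, Fes, Ppp2r5c and Prkra between the lines. Without an intensity filter the list's median, relative to all genes, was 0.034 in 70Z/3, 0.053 in 18-81, 0.015 on average, −0.17 for the difference of effects and 0.34 between the lines, where 5 listed genes passed in place of 9; with the mean of probes the average was −0.17, and with the miR-Neg groups alone the line median was 0.29. With the replicate number as a block, 14 listed genes and 9040 of all genes passed between the lines in place of 9 and 5989, and with a block within each line 1 gene passed in 70Z/3; the block changed no other count of adjusted calls by over 1.5 times. Requiring signal on all 8 arrays left 3536 genes past the threshold between the lines, of fewer tested. Leaving out each array in turn moved the list's median to between −0.22 and −0.0064 in 70Z/3, −0.28 and 0.14 in 18-81, −0.12 and 0.20 for the difference of effects, and −0.24 and 0.36 between the lines, and it left 5 to 9 listed genes past the threshold between the lines (5 without 18-81 miR-125b replicate 2). Over all genes it gave 0 to 2 calls in 70Z/3 (2 without miR-Neg replicate 2), 0 to 9 in 18-81 (9 without miR-125b replicate 2), 0 to 5 on average and 0 to 5 for the difference of effects. The cause of these shifts was not tested. Where a left-out array leaves 1 in a group, that array is assumed to vary like the others. The dimmest array, 70Z/3 miR-Neg replicate 2, had the fewest probes above background (38%), and 2 arrays a group limit what could be called.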

Other observations

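Over the whole array, probes that hold the seed match CTCAGGG stood for 84 of the genes tested. With miR-125b their median difference lay −0.03 from that of all genes in 70Z/3 and −0.01 in 18-81, and 44 of the 84 were below the median of all genes in each line. The 24 genes whose probe has an A after the match (CTCAGGGA) lay −0.23 from all genes in 70Z/3 and 0.02 in 18-81. Of these 24, 13 fell under the all-gene median in 70Z/3 and 11 did so in 18-81. Averaged over both lines, the offset was −0.0062 for the 24 genes and −0.08 for the 84. None of the 45 probes of the listed genes holds the longer match, which 0.122% of all probes do. A probe covers only a short stretch of a message, so these values say nothing of matches elsewhere in it.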
